A study of Mus musculus with 58 samples.

Results

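The comparison described here set livers of old mice that received a Myc vector against livers of old mice that received a control vector, all of them given vehicle and no drug. Its members are the 19 libraries labelled old_Myc_Vehicle (11) and old_mApple_Vehicle (8), out of 58 libraries in the series, and they were taken by their labels alone. All 19 came from whole livers of male C57BL6/J mice. Each mouse had received an adeno-associated virus of serotype AAV8, which enters liver cells, with either Myc or the red fluorescent protein mApple under the TBG promoter, which is active in hepatocytes and not in the other cells of the liver. For 30 days vehicle was gavaged 2 times daily, and weekends were left free. The first batch held 6 Myc and 4 mApple libraries of mice aged 25 months. The second held 5 Myc and 4 mApple libraries of mice aged 24 months, so that batch and age cannot be told apart. A further 23 old livers (14 Myc, 9 mApple) received ruxolitinib, which blocks the JAK1 and JAK2 kinases, at 45 mg/kg on the same schedule, and they are given beside the vehicle values where they bear on them.

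Myc is a transcription factor that pairs with MAX and binds DNA at a short sequence called the E-box. It is known for raising the genes that build ribosomes, make nucleotides and drive cells into the cell cycle, and its overexpression in hepatocytes can lead to liver cancer. In a resting adult liver Myc is low, and hepatocytes are mostly out of the cell cycle and spend much of their RNA on secreted plasma proteins and on metabolism.

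The 19 vehicle libraries held between 10675994 and 20936922 counts (median 15441670). Levels are given in CPM (counts scaled to a common library total), corrected for library composition by the TMM method. Alb, the transcript of serum albumin, made up 6.96 to 17.0% of the counts of every library. Libraries 870 and 855 stood apart from their labels in their Myc level. These are the library numbers of the labels; library 870 is of the Myc group and library 855 of the mApple group.

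Myc itself (chr15:61985341-61990361, plus strand, mm10) was higher in the Myc group, but the groups overlapped. In the first batch the Myc libraries had 109.9, 99.0, 88.2, 134, 6.94 and 49.7 CPM, and the mApple libraries had 17.4, 57.5, 18.1 and 28.0 CPM. In the second batch the Myc libraries had 36.1, 38.3, 30.0, 36.1 and 26.03 CPM, and the mApple libraries had 7.21, 14.2, 2.97 and 6.68 CPM. All 5 Myc libraries of the second batch lay above its 4 mApple libraries, whereas in the first batch library 870 (6.94 CPM) lay below every mApple library and library 855 (57.5 CPM) lay above library 870 and 1 other Myc library. The fitted difference was a log2 fold change of 1.70 ± 0.39 (SE; edgeR adjusted p = 0.0049), being 1.40 in batch 1 alone and 2.10 in batch 2 alone. It kept its call whichever library was left out, with log2 fold changes of 1.56 to 2.00. It was not called in batch 1 alone or in a fit with no batch term. The counts do not show how much of this RNA came from the vector and how much from the mouse's own gene.

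Each library was then placed between the groups, using only genes that were called in a fit without that library. A position of 0 is the median of the other mApple libraries of its batch and 1 is that of the other Myc libraries. Over the genes that were higher with Myc, library 870 had a median position of 0.275, and the other 10 Myc libraries had positions of 0.724 to 1.41. The mApple libraries lay between -0.07 and 0.254, and library 855 had the lowest position, -0.07, in spite of its Myc level. Over the genes that were lower with Myc, library 870 had a position of 0.465, not far from the highest mApple library at 0.41. So the library labelled Myc with the least Myc RNA lay nearest to the mApple livers, and the mApple library with the most Myc RNA showed none of the shift.

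**Figure D1:**
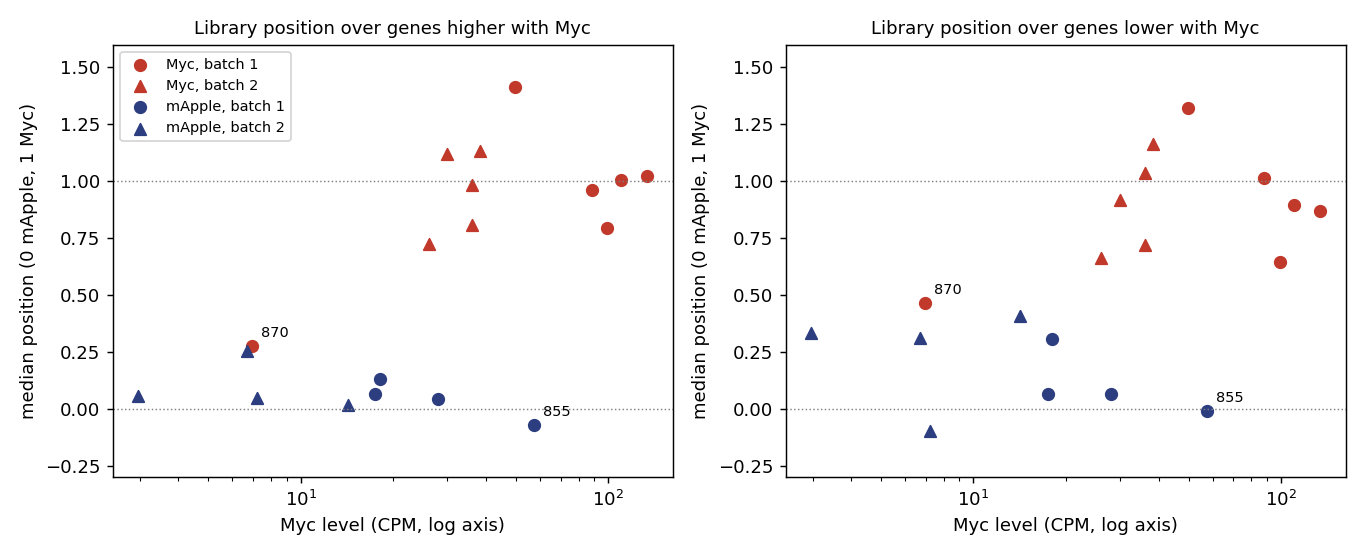
Each point is 1 old vehicle liver, with its Myc level (CPM, log axis) and its median position between mApple (0) and Myc (1) over genes higher (left) and lower (right) with Myc. Library 870 sits at 0.275 and 0.465, apart from the other Myc livers, and library 855 sits at -0.07 and -0.01 at 57.5 CPM of Myc.

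Across 13547 tested genes, 2544 passed an adjusted p of 0.05 (18.8%), of which 1459 were higher with Myc (10.8%) and 1085 were lower (8.01%). Increases were larger than decreases: 262 of the called genes had a log2 fold change of 1 or more and 37 had one of -1 or less. The median over all tested genes was -0.02. Calls were fewer within a batch, with 732 in batch 1 and 629 in batch 2. Without libraries 855 and 870, 1532 genes were higher and 998 lower. Leaving out library 855 alone gave the lowest total, 1931, and leaving out library 870 alone gave the highest, 3085.

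**Figure D2:**
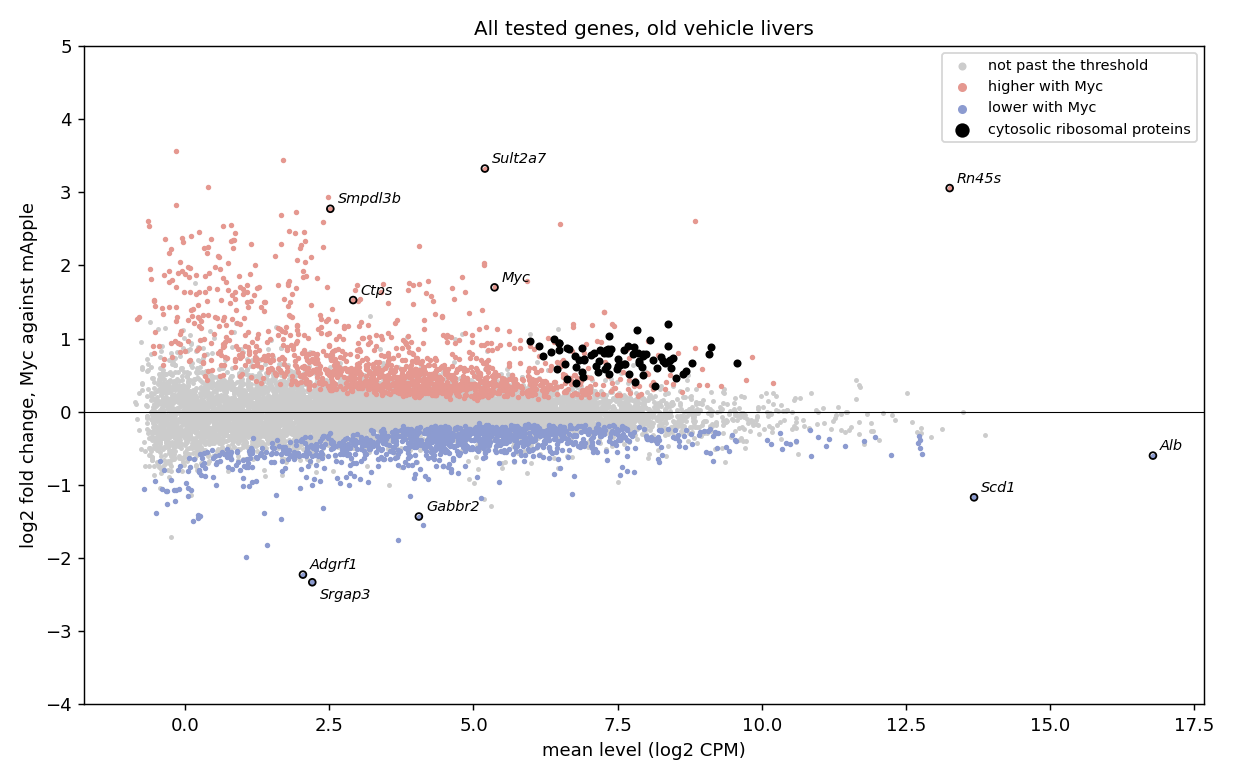
Each point is 1 of 13547 tested genes, with its mean level (log2 CPM) and its log2 fold change (Myc against mApple, old vehicle livers). Cytosolic ribosomal protein genes (black) form a cloud above 0, with Alb and Scd1 among the abundant genes below it.

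A stricter view asks for no overlap at all. In 123 genes all 11 Myc libraries lay above all 8 mApple libraries (0.908% of tested genes), and in 15 genes all 11 lay below (0.111%). Of the 123, 34 were cytosolic ribosomal proteins, 7 were factors of large subunit assembly and 5 were factors of the small subunit processome. Of the mitosis genes and the interferon genes described further on, none was among them, although many were called.

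The E-box sequence searched was CACGTG, which reads the same on both strands. Among tested genes, 10425 had a RefSeq promoter window of 300 bases (250 before to 50 after the gene start, build GRCm38.p6), and 11.6% of these held the sequence. The share was 13.8% among genes higher with Myc (158 of 1144) and 9.57% among genes lower with Myc (78 of 815). By role, windows with the sequence made up 10 of 37 for translation factors, 10 of 44 for the small subunit processome, 6 of 29 for nucleotide synthesis, 6 of 58 for cytosolic ribosomal proteins, 3 of 51 for mitosis and 1 of 37 for the type I interferon response. Lists with few or no increases had shares as high, among them the circadian clock (5 of 16, 31.2%), p53 targets (6 of 22, 27.3%) and immediate early genes (4 of 16, 25.0%). These shares describe the letters in the windows and not binding. Windows to print were sought only among the named genes of ribosome and nucleotide synthesis whose groups did not overlap, with 1 chromosome left out. Of these, 3 had a single window with the sequence before the start. Their 250 upstream bases are shown 5′ to 3′ with the E-box in capitals. Genes that were not named were not searched for this purpose. They lie at chr9:108560186-108560435 (plus strand) for Impdh2, chr1:71556906-71557155 (plus) for Atic and chr7:19359484-19359733 (minus) for Cd3eap, with the E-box starting 110, 7 and 218 bases before the start.
Impdh2: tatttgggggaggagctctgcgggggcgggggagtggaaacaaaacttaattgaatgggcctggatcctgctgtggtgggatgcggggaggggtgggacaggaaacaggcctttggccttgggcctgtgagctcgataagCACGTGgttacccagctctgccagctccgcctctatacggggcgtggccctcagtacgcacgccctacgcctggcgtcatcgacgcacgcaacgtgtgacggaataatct
Atic: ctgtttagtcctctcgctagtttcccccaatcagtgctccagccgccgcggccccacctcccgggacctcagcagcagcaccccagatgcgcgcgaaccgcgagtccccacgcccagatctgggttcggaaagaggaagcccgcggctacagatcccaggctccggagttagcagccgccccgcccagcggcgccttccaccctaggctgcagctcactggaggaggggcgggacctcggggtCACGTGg
Cd3eap: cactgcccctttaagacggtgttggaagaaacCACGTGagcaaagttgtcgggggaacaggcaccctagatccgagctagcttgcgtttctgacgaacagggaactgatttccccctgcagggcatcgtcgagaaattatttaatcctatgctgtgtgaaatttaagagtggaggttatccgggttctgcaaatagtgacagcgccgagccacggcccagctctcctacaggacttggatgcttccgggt

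Impdh2, which makes the guanine nucleotide precursor XMP, had 38.6 to 76.3 CPM in the Myc livers (median 53) and 25.0 to 34.7 CPM in the mApple livers (median 28.2). Every Myc liver lay above every mApple liver, and the log2 fold change was 0.88 ± 0.10 (SE; edgeR adjusted p = 2.34e-05). Atic, which carries out the last steps of purine synthesis, was at 36.0 to 80.8 CPM (median 65.6) against 24.3 to 35.9 CPM (median 33.4), a log2 fold change of 0.92 ± 0.12. Cd3eap, a subunit of RNA polymerase I, ran from 6.32 to 13.6 CPM (median 7.61) against 3.37 to 5.58 CPM (median 4.64), a log2 fold change of 0.82 ± 0.14.

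The making of ribosomes begins with RNA polymerase I, which copies the ribosomal RNA genes, and RNA polymerase III, which makes the 5S RNA and tRNAs. Of 33 tested genes of both polymerases, 13 rose (39.4%, beside 10.8% of all genes) and none fell, with a median log2 fold change of 0.23 beside -0.02 over all genes. Polr1b, the second largest subunit of polymerase I, had 20.1 to 38.9 CPM with Myc (median 30.6) and 13.1 to 22.3 CPM with mApple (median 17.3), a log2 fold change of 0.79 ± 0.11 (SE; edgeR adjusted p = 8.61e-05). Rrn3, which brings polymerase I to its promoter, rose by less, 0.31 ± 0.07. In 9 Myc livers it lay above all mApple livers.

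The small subunit processome and the snoRNA-guided modification machinery cut and modify the new ribosomal RNA. Of 54 such genes, 22 rose (40.7%) and none fell (median 0.31). Nhp2, a core protein of the H/ACA snoRNA particles that turn uridine into pseudouridine, had 14.8 to 36.5 CPM in Myc livers (median 24.1) and 8.93 to 11.04 CPM in mApple livers (median 9.40). The groups did not overlap, and the log2 fold change was 1.26 ± 0.14 (edgeR adjusted p = 1.7e-05). Its partner Dkc1, the pseudouridine synthase, rose by 1.05 ± 0.16. Among the C/D particles that methylate ribosomal RNA, Nop56 rose by 1.13 ± 0.19, Nop58 by 1.02 ± 0.18 and the methyltransferase Fbl by 0.67 ± 0.10.

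The RNAs that carry these snoRNAs in their introns were higher as well. This group was looked at after the values had been seen, because Zfas1 and Snhg1 led the genes whose groups did not overlap, and its counts are a description. Of 17 tested genes named Snhg with a number or known as Gas5, Zfas1 or Epb41l4aos, 15 were higher with Myc, none was lower, and the median log2 fold change was 1.08. In 7 of them all Myc livers lay above all mApple livers. Gas5 had 95.4 to 224 CPM with Myc (median 136) and 51.3 to 78.5 CPM with mApple (median 59.6), a log2 fold change of 1.16 ± 0.13. Zfas1 had 11.7 to 40.3 CPM (median 28.4) against 2.78 to 9.38 CPM (median 5.10), a log2 fold change of 2.26 ± 0.21 (edgeR adjusted p = 6.72e-06). Snhg1 rose by 1.22 ± 0.12 and Snhg15 by 1.71 ± 0.20. Counting did not use strand, so for the antisense transcripts Zfas1 and Epb41l4aos, reads of the partner gene on the other strand cannot be told apart. Under ruxolitinib, 13 of the 17 were higher with Myc.

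Large subunit assembly showed a higher share of called genes, with 35 of 52 up (67.3%), none down and a median of 0.44. Nle1, which releases assembly factors from the particle, had 4.14 to 9.63 CPM in Myc livers and 1.96 to 3.75 CPM in mApple livers, and Mrto4, which holds the place of the stalk protein, had 17.3 to 28.3 against 11.496 to 15.6 CPM. Neither gene overlapped between the groups. Pes1, part of the PeBoW complex, rose by 0.49 ± 0.07, again with no overlap. Another PeBoW member, Bop1, had a log2 fold change of 0.24 ± 0.10 and did not pass the test (edgeR adjusted p = 0.11). Of the abundant nucleolar proteins, Npm1 had 196 to 540 CPM with Myc (median 271) and 127 to 201 CPM with mApple (median 163), and 10 of 11 Myc livers lay above all mApple livers. Ncl, the other major nucleolar protein, rose by 0.77 ± 0.12.

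The proteins of the cytosolic ribosome were the most uniform group. Of 79 tested genes, 78 rose (98.7%) and none fell, with a median log2 fold change of 0.72. Their summed level was 17570 to 28482 CPM in the Myc livers (median 19412) and 10551 to 14750 CPM in the mApple livers (median 12235), so that the sums did not overlap. Rpl38 had 73.4 to 118 CPM with Myc (median 87.4) and 37.4 to 53.8 CPM with mApple (median 49.3), a log2 fold change of 0.90 ± 0.09 (edgeR adjusted p = 6.72e-06). Rplp1, an acidic stalk protein, rose by 1.19 ± 0.13 and Rpl12, which anchors the stalk, by 1.11 ± 0.12. Rack1, a scaffold on the small subunit that was named after its value was seen, rose by 0.81 ± 0.10. Within batches, 70 members rose in the first (median 0.90) and 62 in the second (median 0.53). Many ribosomal protein genes have near-identical pseudogenes, between which reads can be split. Most are also short: 71 of the 79 lay among the shortest 2711 tested genes (up to 1584 bases), which had a median log2 fold change of 0.10, against -0.11 in the longest 2709. The part of length in the ribosomal protein values was not tested.

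Mitochondrial ribosomal proteins followed to a lesser extent, with 34 of 78 up (43.6%), none down and a median of 0.26. Mrpl30 had 39.4 to 57.4 CPM in Myc livers and 23.7 to 36.5 CPM in mApple livers, with no overlap and a log2 fold change of 0.54 ± 0.09. Within batches 10 rose in the first and 6 in the second. Under ruxolitinib 5 of the list rose, with a median of 0.04, but no member's difference between the drug arms passed the adjusted test. At an unadjusted edgeR p under 0.05 that difference was found for 12 of the 78, beside 735 of all 14046 genes.

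Of 47 translation factors 19 rose (40.4%; median 0.25). Eef1b2, the exchange factor that recharges elongation factor 1, had 181 to 362 CPM with Myc (median 228) and 70.7 to 140 CPM with mApple (median 106), a log2 fold change of 1.18 ± 0.13 (edgeR adjusted p = 1.81e-05). Eif4a1, the helicase that opens the start of messenger RNAs, rose by 0.53 ± 0.08 and Eif5a, which carries the hypusine residue, by 0.51 ± 0.10. In all 3 the groups did not overlap. Eif4ebp2, an inhibitor of the cap-binding factor, fell by 0.33 and lost its call without library 1135. Of 22 genes for aminoacyl-tRNA synthetases and their scaffold proteins, 13 rose (59.1%), led by Vars at 0.90 ± 0.12, the enzyme that charges valine. Aars (alanine) and Tars (threonine) fell by 0.29 and 0.24. Aars lost its call without library 1137 (edgeR adjusted p = 0.052), and Tars lost its call without library 855 or 1135.

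The eukaryotic chaperonin CCT folds actin, tubulin and cell-cycle proteins, and the HSP60 and HSP10 pair folds proteins in mitochondria. Of 30 chaperone genes 14 rose (46.7%), 7 of them subunits of CCT. Cct5 had 123 to 207 CPM with Myc and 83.2 to 113 CPM with mApple, with no overlap and a log2 fold change of 0.60 ± 0.08. Hspd1, which encodes HSP60, rose by 0.87 ± 0.12, and Hspe1, which encodes HSP10, by 0.67 ± 0.09. The stress-induced pair Hspa1a and Hspa1b went the other way, at -1.14 ± 0.36 and -1.15 ± 0.29. These 2 genes are near-identical copies and their reads can be shared. Hspa1a lost its call without library 854 or library 1135 (edgeR adjusted p = 0.075 and 0.12).

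Synthesis of purines and pyrimidines rose in 23 of 32 genes (71.9%), with none down and a median of 0.53. Ctps, which makes CTP, had 6.82 to 20.5 CPM in Myc livers (median 9.54) and 2.42 to 4.89 CPM in mApple livers (median 3.39), a log2 fold change of 1.53 ± 0.21 (edgeR adjusted p = 7.01e-05). The groups did not overlap. Nme1, which passes phosphate between nucleotides, rose by 0.91 ± 0.13 and Cad, which starts pyrimidine synthesis, by 0.72 ± 0.18. Among 13 genes of polyamine metabolism 4 rose (30.8%): Srm by 0.96 ± 0.17, Sms by 0.52, Mtap by 0.56 and Odc1 by 0.60 ± 0.18. Odc1, the classical Myc target that makes putrescine, lost its call without library 855 (edgeR adjusted p = 0.053). In serine and one-carbon metabolism 4 of 25 genes were called higher (16.0% beside 10.8%), a count that was 1 without library 855 and 0 in each batch alone. Psat1, of serine synthesis, was the largest of them at 1.02 and lost its call without library 855 or 863.

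Glycolysis, which is often listed among Myc targets, showed few calls. Of 24 genes 1 rose (4.17%) and 2 fell (8.33%), with a median of -0.03. Pgam1 rose by 0.42 ± 0.09, and Aldoc, an aldolase that was named after its value was seen, fell by 0.50. For comparison, 10 of 66 nuclear genes of the respiratory chain rose (15.2%, beside 10.8% of all genes), a count that dropped to 4 without library 862 and to 0 in each batch alone.

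**Figure D3:**
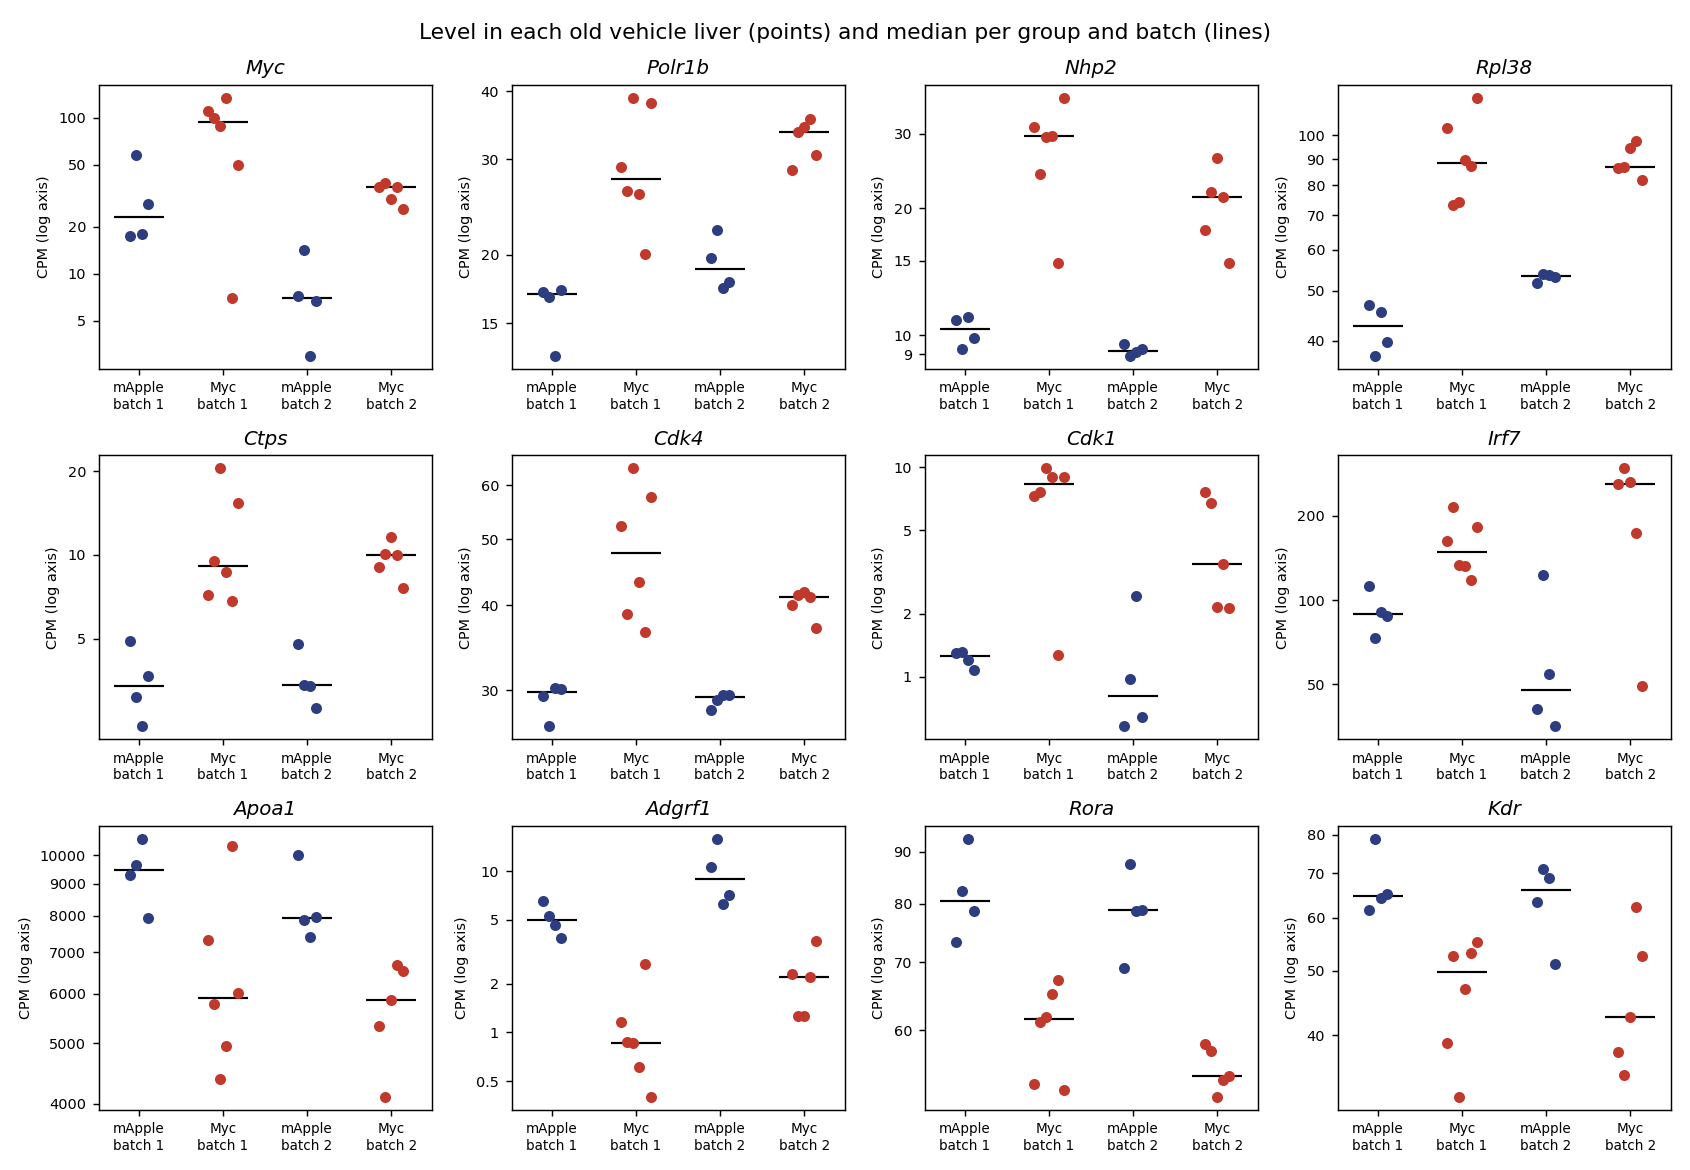
Level of 12 genes in each of the 19 old vehicle livers (CPM, log axes), split by vector and batch, with lines at the medians. Nhp2, Rpl38, Ctps and Cdk4 are higher in all Myc livers and Adgrf1 and Rora are lower in all of them, while Myc, Polr1b, Cdk1, Irf7, Apoa1 and Kdr overlap.

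Cell-cycle genes were called in 3 lists, with medians of 0.37, 0.60 and 1.64 beside 0.72 for cytosolic ribosomal proteins. Of 33 cyclin, CDK and E2F genes, 14 rose (42.4%) and 2 fell (6.06%). Cdk4, which pairs with D cyclins to open the cell cycle, had 36.5 to 63.5 CPM with Myc (median 41.4) and 26.6 to 30.2 CPM with mApple (median 29.5), a log2 fold change of 0.58 ± 0.09. It was the sole member of this list with no overlap between the groups. E2f3 rose by 0.64 ± 0.11, E2f1 by 0.77 ± 0.18 and Ccne1, which drives entry into S phase, by 1.604 ± 0.43. Cdkn1b, an inhibitor of CDKs, fell by 0.26, and Cdkn1c fell by 0.52, with 1 decrease left in the list without library 1136. Ccnd1, cyclin D1, had a log2 fold change of -0.31 ± 0.38 (edgeR adjusted p = 0.61), being 0.63 in batch 1 and -1.21 in batch 2.

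DNA replication genes rose in 25 of 44 cases (56.8%) with none down (median 0.60). Mcm6, part of the replicative helicase, had 6.57 to 46.6 CPM in Myc livers (median 16.5) and 3.93 to 10.4 CPM in mApple livers (median 6.02), a log2 fold change of 1.66 ± 0.33. Rfc4, of the clamp loader, rose by 1.07 ± 0.18 with no overlap. Uhrf1, which copies DNA methylation to the new strand, rose by 2.12 ± 0.49.

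Mitosis genes had the largest median of the lists, 1.64, with 54 of 60 up (90.0%) and 1 down (Pttg1, by 0.25, a call lost without library 1138). Cdk1, the kinase that starts mitosis, had 1.28 to 9.89 CPM with Myc (median 7.26) and 0.581 to 2.43 CPM with mApple (median 1.15), and 8 of 11 Myc livers lay above all mApple livers. Cdc20, an activator of the anaphase-promoting complex, rose by 2.60 ± 0.55 and Hmmr, a spindle protein, by 2.73 ± 0.63. Mki67 had 3.15 to 37.1 CPM (median 11.6) against 1.05 to 7.01 CPM (median 4.80), a log2 fold change of 1.64 ± 0.42 (edgeR adjusted p = 0.0097). The batches differed in what they could show. In the first batch 41 mitosis genes rose (median 2.02), and in the second none passed the adjusted test (median 1.05), although replication genes did in 3 cases and ribosomal protein genes in 62. Without libraries 855 and 870, 53 mitosis genes rose. In whole-liver RNA, more cells in mitosis and more of these transcripts per cell cannot be told apart, and the same holds for every gene group described here.

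Of 30 p53 targets 5 were called higher (16.7%, beside 10.8% of all genes) and none lower (median 0.21), and 8 were higher without library 862. They were Gtse1 at 1.79, a microtubule-binding protein of dividing cells, the receptors Eda2r and Tnfrsf10b at 1.18 ± 0.33 and 1.13 ± 0.30, and Aen and Zmat3 at 0.48 and 0.57. Within batches none was called higher in the first and 8 were in the second. Ddit4, an inhibitor of mTORC1, rose by 0.69 as the sole increase among 19 genes of the integrated stress response. Fgf21, a liver hormone of fasting, was the sole decrease at -1.15, and lost its call in 9 of the 19 fits that left out 1 library, with an edgeR adjusted p of 0.13 without library 1137.

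The interferon lists moved with Myc as well, with a wide spread. Of 50 type I interferon response genes 30 rose (60%) and none fell, with a median of 0.78. Irf7, the factor that amplifies interferon production, had 49.2 to 296 CPM with Myc (median 174) and 35.4 to 123 CPM with mApple (median 80.4), and 9 of 11 Myc livers lay above all mApple livers (log2 fold change 1.19 ± 0.29, edgeR adjusted p = 0.0073). Bst2, which tethers budding viruses, rose by 0.96 ± 0.18. The count of 30 was sensitive to single libraries: it was 19 without mApple library 1135 and 43 without mApple library 1136, which had 27.45 CPM of Isg15 where the other mApple livers had 3.86 to 6.997. Without libraries 855 and 870 it was 34. Within batches 11 rose in the first and 4 in the second. Under ruxolitinib 22 were higher with Myc, with a median of 0.72.

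Interferon gamma GTPases and chemokines rose in 9 of 27 genes (33.3%), a count that was 4 without library 1135 and 5 without libraries 855 and 870. Of 23 genes of class I antigen presentation 3 were called higher (Psme1, Tap1 and H2-T24, by 0.27, 0.48 and 0.76), which at 13.04% is near the 10.8% of all genes, and none was without library 863 or without libraries 855 and 870. None of 10 class II genes passed the test.

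Of 33 cytokine receptors, JAKs and STATs, 5 fell (15.2%, beside 8.01% of all genes) and none rose (median -0.14). Jak1 had 107 to 132 CPM with Myc (median 122) and 129 to 172 CPM with mApple (median 139), a small decrease in which 9 of 11 Myc livers lay below all mApple livers (log2 fold change -0.27 ± 0.07, edgeR adjusted p = 0.0067). Ghr, the growth hormone receptor, fell by 0.44 ± 0.08, and 10 of 11 Myc livers lay below all mApple livers. The interleukin 6 receptor chains Il6ra and Il6st fell by 0.70 ± 0.19 and 0.37 ± 0.11. Jak2 fell by 0.23 ± 0.07, and lost its call without any 1 of 6 libraries (adjusted p up to 0.073, without library 862). Under ruxolitinib the difference of Jak1 was 0.00.

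Hepatocyte genes fell in part. Of 37 secreted plasma proteins 11 fell and none rose (29.7% beside 8.01% of all genes), with a median of -0.25. Within a batch alone 1 was called lower in each, with medians of -0.16 and -0.32. The summed level of the list was 161500 to 242958 CPM in Myc livers and 238295 to 321091 CPM in mApple livers. The 2 ranges barely met, and Alb alone had medians of 100861 and 139682 CPM beside summed medians of 210857 and 268862 CPM. Apoa1, the main protein of HDL, had 4104 to 10343 CPM with Myc (median 5857) and 7386 to 10624 CPM with mApple (median 8635). Of the 11 Myc livers 10 lay below all mApple livers, and the remaining one was library 870. Itih2, a protease inhibitor of plasma, fell by 0.44 ± 0.08 and Serpina1d, an alpha-1-antitrypsin, by 0.47 ± 0.08. Serpina1 genes are near-identical copies, so their separate values are uncertain. Of 40 complement and coagulation genes 6 fell (15%, beside 8.01% of all genes), a count that was 4 without library 855 and 11 without library 870. Within batches 3 fell in the first and 0 in the second. Among the 6 were C6 at -0.81 ± 0.19, F5 at -0.50 ± 0.11 and antithrombin (Serpinc1) at -0.35 ± 0.07.

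Of 29 hepatocyte transcription factors 3 were called lower, which at 10.3% is near the 8.01% of all genes, and 5 were without library 870. Foxa3 fell by 0.59 ± 0.12 and Hnf4a by 0.31 ± 0.09, and Esrra rose by 0.34, a call lost without library 1135 or library 858. Hnf4a, a central factor of hepatocyte identity, lost its call without library 854 (edgeR adjusted p = 0.066) or library 855 (0.070). Of 27 bile acid genes 5 fell (18.5%, beside 8.01% of all genes), namely Cyp8b1, Cyp27a1, Cyp39a1, Baat and Cyp7a1. The median of the list was -0.05, and within batches 1 fell in the first and 0 in the second. Cyp27a1, which starts the acidic pathway, had 236 to 556 CPM with Myc (median 333) and 399 to 522 CPM with mApple (median 511), a log2 fold change of -0.49 ± 0.11.

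Of 58 drug-metabolising genes 11 fell (18.97%, beside 8.01% of all genes), led by Cyp2c67 at -0.76 ± 0.11 and Cyp4f14 at -0.50 ± 0.09, and the count was 6 without library 855. The 2 that rose were 3.45% of the list, below the 10.8% of all genes. They were Cyp2b13 at 2.45 ± 0.50 and Cyp2b9 at 1.85. The largest increase under the naming rule was that of Sult2a7, a sulphotransferase, which had 6.76 to 126 CPM with Myc (median 47.3) and 1.14 to 16.6 CPM with mApple (median 4.61), a log2 fold change of 3.32 ± 0.46 (edgeR adjusted p = 8.21e-05). Of the 11 Myc livers 10 lay above all mApple livers. Both Sult2a and Cyp2b genes have close copies. Of 22 genes of the growth hormone and IGF axis and of male-predominant expression, 5 fell (22.7%, beside 8.01% of all genes) and none rose. The 5 were C6, Cyp2u1, Susd4, Elovl3 and Igf1. The count was 3 without library 855 and 8 without library 870, and Elovl3 lost its call without library 855 or 863 (edgeR adjusted p = 0.069 and 0.071).

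In lipid synthesis 4 of 36 genes fell (Scd1, Elovl6, Me1 and Tm7sf2), which at 11.1% is near the 8.01% of all genes, and the count was 1 without library 862 and 7 without library 1137. Scd1, the desaturase that makes oleate, had 1697 to 16102 CPM with Myc and 1013 to 37977 CPM with mApple, where the lowest value was that of library 1137. Its log2 fold change was -1.17 ± 0.37 (edgeR adjusted p = 0.030), which did not pass without library 855 (0.072), 862, 1135 or 1138. Urea cycle and amino acid breakdown (40 genes), fatty acid oxidation (41) and gluconeogenesis (13) had medians of 0.02, 0.10 and -0.11. Increases numbered 3, 2 and 0 (7.5, 4.88 and 0%, beside 10.8% of all genes). Decreases numbered 2, 1 and 0 (5, 2.44 and 0%, beside 8.01%). Without library 1135 no decrease was left in the first list and no increase in the second.

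Several decreases of single genes were large or without overlap between the groups. Adgrf1, an adhesion receptor, had 0.399 to 3.71 CPM with Myc (median 1.26) and 3.83 to 15.9 CPM with mApple (median 6.40), a log2 fold change of -2.23 ± 0.28 (edgeR adjusted p = 3.46e-05). Sstr2, a somatostatin receptor, had 0.863 to 2.62 CPM against 2.76 to 5.70 CPM, a log2 fold change of -1.39 ± 0.20. Both had no overlap. Gabbr2, a GABA receptor subunit, fell by 1.43 ± 0.19, the vasopressin receptor Avpr1a by 1.18 ± 0.14 and Srgap3, a regulator of Rac, by 2.33 ± 0.28. Rora, a nuclear receptor of the clock and of liver metabolism, had 51.6 to 67.3 CPM against 69.1 to 92.7 CPM and fell by 0.51 ± 0.07. Others with all Myc livers lower were named after their values were seen. Ids, a lysosomal sulphatase, had the smallest adjusted p of the 15 such genes (edgeR, 1.33e-05) and fell by 0.76 ± 0.08. The prostaglandin transporter Slco2a1 fell by 0.88, the stress sensor Atf6 by 0.39 and the transcription factor Zeb1 by 0.47. Mycn, the close relative of Myc, fell by 1.41 ± 0.31, from a median of 1.79 CPM to one of 0.52 CPM. Opposite to these, H19, an imprinted RNA of fetal liver, rose by 1.83 ± 0.52 from a median of 0.486 to 1.598 CPM, and Smpdl3b, a membrane phosphodiesterase, rose by 2.77 ± 0.35.

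Genes of cells that the TBG promoter does not drive were measured as well. Of 18 markers of sinusoidal endothelium, 15 fell and none rose (83.3% beside 8.01%), with a median of -0.44. Their summed level was 409 to 859 CPM in Myc livers (median 621) and 529 to 1052 CPM in mApple livers (median 807). Kdr, a receptor for VEGF, had 32.3 to 62.4 CPM with Myc (median 46.9) and 51.1 to 78.9 CPM with mApple (median 64.8), a log2 fold change of -0.54 ± 0.11 (edgeR adjusted p = 0.0028). Fcgr2b, an antibody receptor of these cells, fell by 0.55 ± 0.10, Stab1, a scavenger receptor, by 0.47 and Gpr182 by 0.64. The size was alike in both batches, with medians of -0.42 and -0.46, although 3 and 1 passed within a batch. Without libraries 855 and 870, 12 fell, and under ruxolitinib 6 fell with a median of -0.43. Whether the livers held fewer of these cells was not tested.

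Other cell types had fewer calls, while several of their lists had medians below the -0.02 of all tested genes. Medians were -0.32 for bile duct, -0.30 for neutrophil, -0.20 for stellate cell, -0.18 for red blood cell and -0.13 for Kupffer cell markers. They were -0.06 for T and NK cell, 0.08 for B and plasma cell and 0.20 for monocyte and macrophage markers. None of 13 Kupffer cell, 15 monocyte and macrophage, 6 neutrophil, 11 T and NK cell, 8 B and plasma cell or 6 red blood cell markers passed the test, while 1 of 20 stellate cell markers (Des) and 1 of 11 bile duct markers fell. The stellate cell count was 5 without library 1137 and 3 by DESeq2, and the bile duct count was 3 by DESeq2, without library 1138, and without libraries 855 and 870. Summed T and NK cell markers came to 8.55 to 53.6 CPM with Myc and 8.37 to 33.7 CPM with mApple. Kupffer cell markers summed to 387 to 939 CPM and 471 to 1075 CPM.

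**Figure D4:**
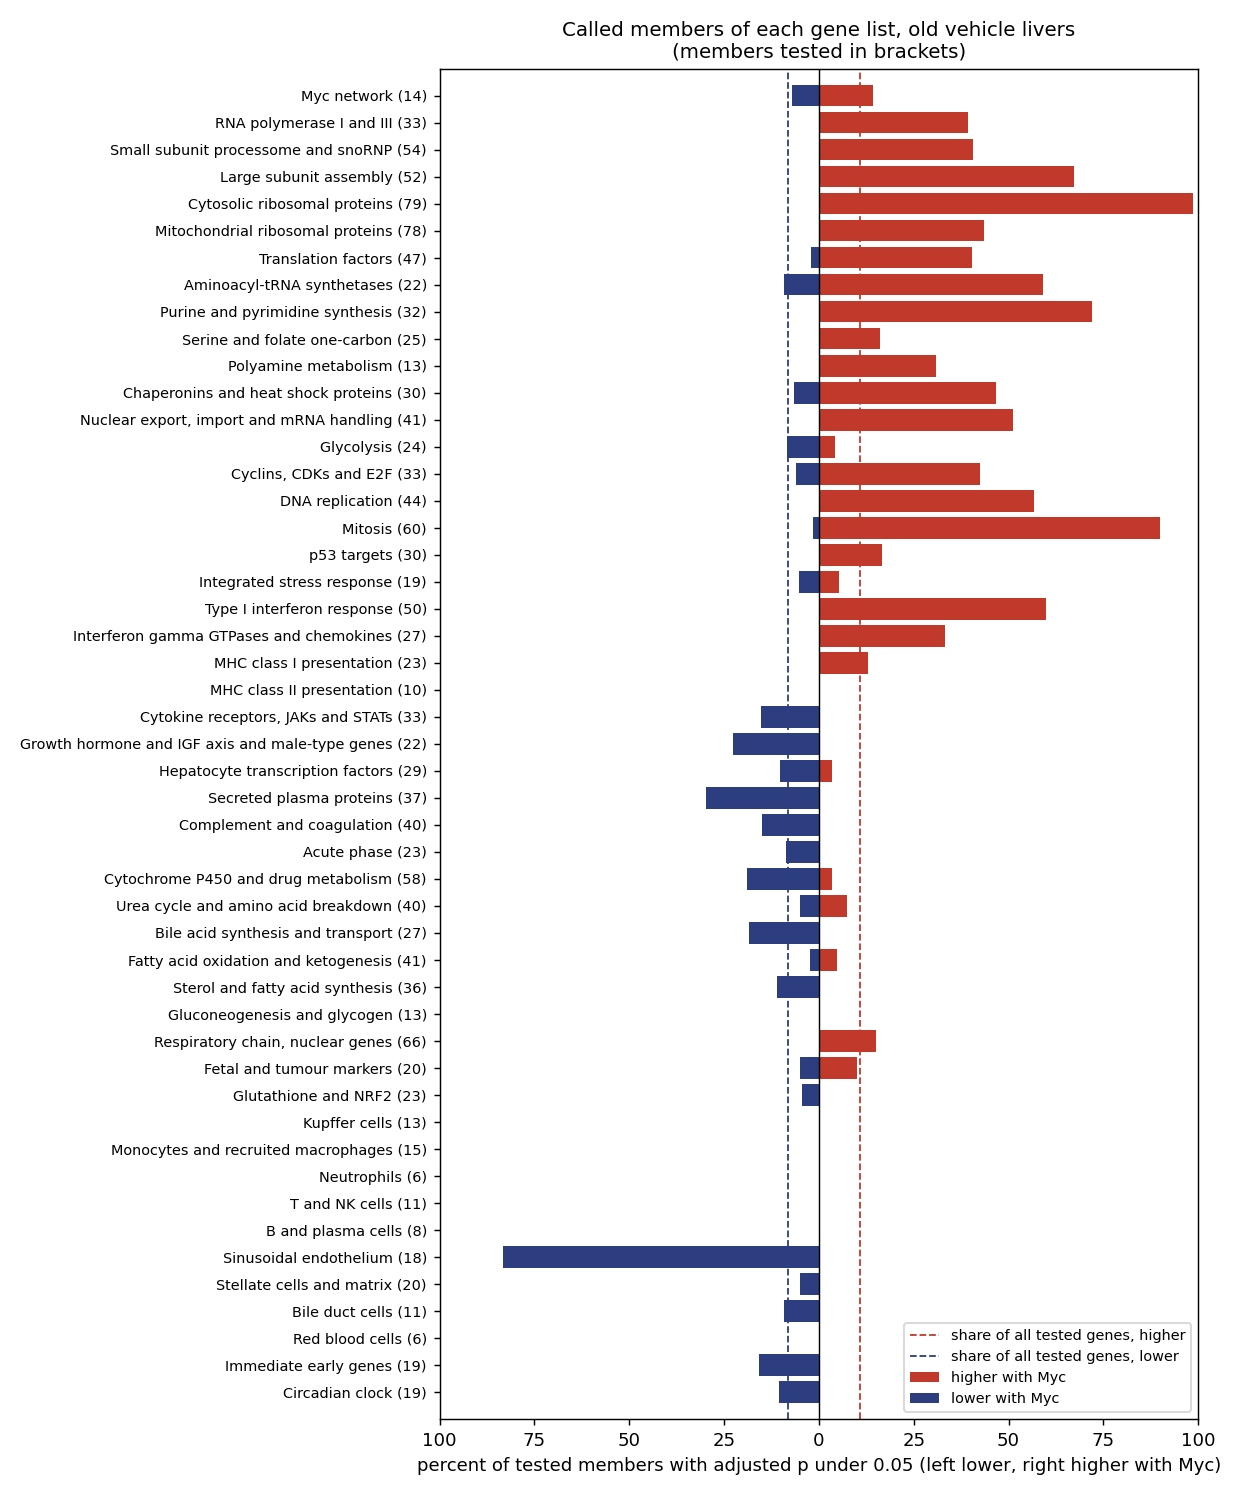
Percent of tested members of each gene list that were higher (right, red) or lower (left, blue) with Myc at an adjusted p under 0.05 in old vehicle livers, with dashed lines at the shares of all tested genes (10.8% and 8.01%). Cytosolic ribosomal proteins (78 of 79) and mitosis (54 of 60) extend farthest to the right, and sinusoidal endothelium (15 of 18) extends farthest to the left.

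With all libraries none of 23 acute-phase genes rose and 2 fell (Crp and Hamp), which at 8.70% is near the 8.01% of all genes. The count of decreases was 1 without library 1138. The values of Saa1 and Lcn2 depended on 1 liver. Saa1 had 18.4 to 352 CPM with Myc (median 73.9) and 9.88 to 2123 CPM with mApple (median 33.8), with the 2123 CPM in library 1137. Lcn2 had 13.9 to 66.7 against 3.55 to 385 CPM, again with the highest value in library 1137. With all libraries their log2 fold changes were -0.25 ± 1.01 and -0.12 ± 0.75 and did not pass. Without library 1137 they were 1.63 and 1.36 (edgeR adjusted p = 0.028 and 0.016). In that fit 6 acute-phase genes were higher, beside 1390 of all 13543 tested genes. Crp fell by 0.40 ± 0.10 with all libraries and kept its call whichever library was left out.

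Rn45s, Rpph1, Lars2 and Mir6236 were called but rested on few livers. Rn45s, the precursor of ribosomal RNA, had 1185 to 131551 CPM with Myc and 453 to 2859 CPM with mApple, with its highest value in library 858. Rpph1, the RNA of ribonuclease P, Lars2 and Mir6236 were also highest in few libraries, with log2 fold changes of 2.94 ± 0.89, 2.60 ± 0.82 and 2.56 ± 0.85, beside 3.06 ± 0.98 for Rn45s. Without library 858 they were 2.26, 1.64, 1.62 and, for Rn45s, 2.00, all still called. Leaving out any 1 of 4 to 7 libraries ended each call, for example without library 855, with edgeR adjusted p of 0.080 for Rn45s and 0.057 for Rpph1. Under ruxolitinib their log2 fold changes were -0.52, 0.22, -0.34 and -0.55 in the order Rn45s, Rpph1, Lars2 and Mir6236, none of them called. The libraries were made from polyA RNA, and the part of polyA selection in these values was not tested. With the 4 genes removed before scaling, 2541 genes were called.

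The same contrast in ruxolitinib livers shares no library with the vehicle contrast. There 2012 of 14010 genes were called (14.4%; 8.4% higher and 5.96% lower). Of 1459 genes higher with Myc under vehicle 765 were also called higher under ruxolitinib, which is 52.4% of the vehicle list and 66.4% of the ruxolitinib list, and 96.1% had the same sign. Of 1082 lower genes tested in both, 323 were called lower in both, 29.9% and 39.5% of the lists, and 91.0% had the same sign. No gene was called in opposite directions. When the difference between the 2 contrasts was tested directly, 0 of 14046 genes passed (edgeR smallest adjusted p = 0.82), with 735 at an unadjusted p under 0.05 and 0 by DESeq2. So the vehicle calls that were missed under ruxolitinib are not shown to differ between the drug arms, nor are they shown to be alike.

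**Figure D5:**
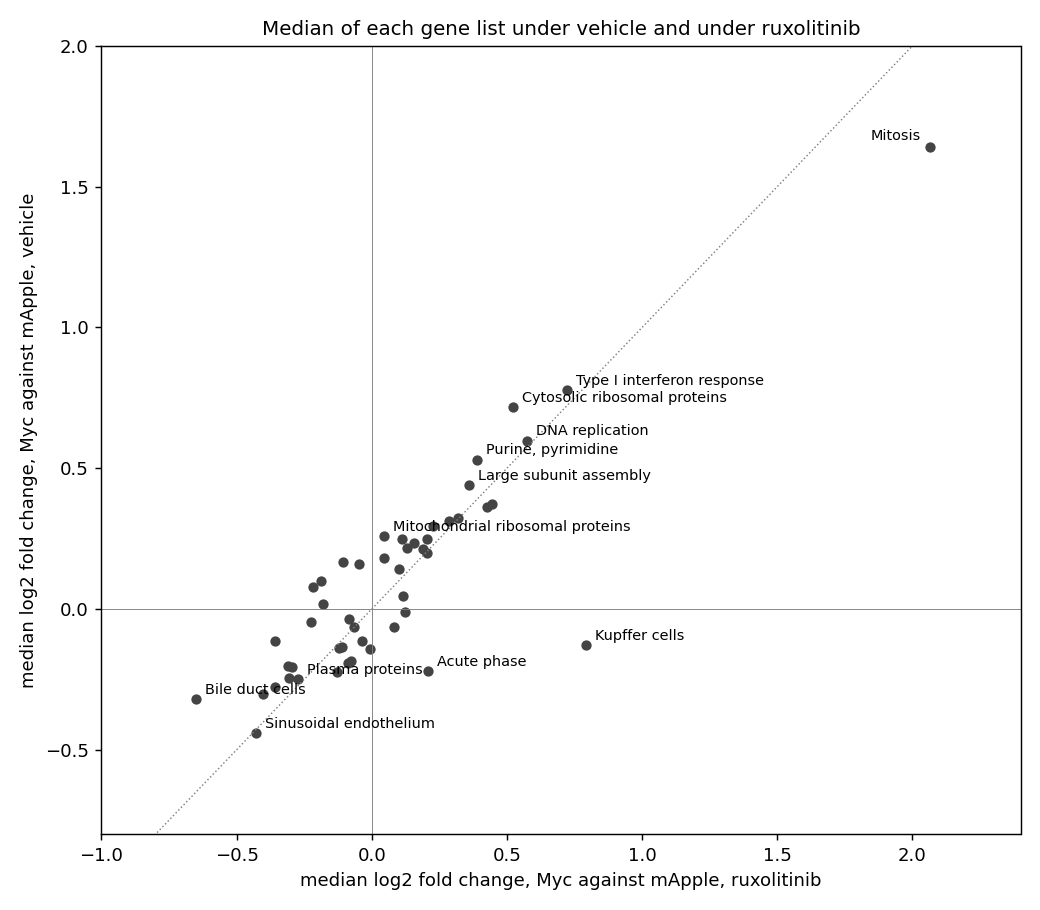
Each point is 1 gene list, with its median log2 fold change (Myc against mApple) under ruxolitinib and under vehicle; the dotted line marks equal values. Mitosis has the highest median in both (2.07 and 1.64) and the Kupffer cell list lies farthest to the right of the line (0.79 and -0.13).

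Within the 11 Myc livers, levels were set against Myc on a log2 scale after centring within batch, for 1 gene each of the ribosome, mitosis, hepatocyte and interferon groups. Npm1 had a Pearson r of 0.95 (permutation within batch, adjusted p = 0.045 over the 4 genes, two-sided) and a Spearman rho of 0.74 (adjusted p = 0.12). Cdk1 had an r of 0.80 (permutation adjusted p = 0.045) and a rho of 0.43 (0.26). Without libraries 870 and 867, the 2 farthest from the median Myc level, the r of Npm1 was 0.55 and that of Cdk1 0.26 (exact permutation adjusted p = 0.55 for both), so both linear relations rest on those livers. The rho of Npm1 was 0.77 without them and that of Cdk1 0.15 (exact permutation adjusted p = 0.42 and 0.67). With levels scaled by library totals in place of TMM, rho was 0.94 for Npm1 and 0.61 for Cdk1 (permutation adjusted p = 0.0025 and 0.029), so the rank calls depended on the scaling. Without centring they were 0.92 and 0.77 (0.047 and 0.12). Within the first batch alone (6 livers) r was 0.96 for Npm1 and 0.92 for Cdk1 (exact permutation adjusted p = 0.089 and 0.21), and no value was computed for the 5 Myc livers of the second batch. For Alb r was 0.29 (permutation adjusted p = 0.51) and for Isg15 it was 0.05 (0.88).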

How the data were processed

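Whole-liver polyA RNA was sequenced (2x75 bp, per the labels' protocols). The deposited values are expected counts (estimated counts), which the authors made with STAR and HOMER on GRCm38 (mm10), per the submitters' processing notes and the file headers, with versions not given in the sources used here. The counts cover exons with 1 transcript per gene symbol and no strand setting, so overlapping and antisense genes can share reads. Of all values 29.9% were not whole, and they were rounded. The deposited table held 24537 genes and 58 libraries. Depth was 10675994 to 20936922 counts per vehicle library; the precision it gives is that of the standard errors.

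Each contrast was fitted on its own libraries with edgeR 4.0.16 (quasi-likelihood test, batch as a term, scaling by TMM, genes kept by filterByExpr at a minimum of 10; R 4.3.3). Two-sided p-values received the Benjamini-Hochberg adjustment across every tested gene, and 0.05 was the threshold. The SE of a log2 fold change is its size divided by the square root of F. Libraries of a group are separate mice as far as the labels tell, and no pair of the same group had identical counts; the smallest chi-square per gene among 83 pairs was 14.7. Alternatives were RLE size factors, DESeq2 1.42.0, limma 3.58.1 voom weights, no batch term, no filter on low counts, either batch by itself, a single fit of the 4 old groups, a threshold of 0.01 and leaving out each library. Leaving out libraries 855 and 870 together, and dropping Rn45s, Rpph1, Lars2 and Mir6236 before scaling, were chosen after seeing the data. List counts quoted as lowest or highest without 1 library name the first such library, and other libraries can share that count. The same holds for the lost calls of Eif4ebp2, Pttg1 and Esrra. Correlations used log2(CPM + 1) and 100000 permutations within batch or all of them.

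The members and the 49 gene lists were chosen with earlier results of these data known. No list was tested; each is described by its count and median, to be read beside the shares (10.8% higher, 8.01% lower) and the median (-0.02) of all tested genes. Named genes are Myc, the 15 largest increases and 15 largest decreases (mean log2 CPM of at least 1, same sign in both batches, without predicted, Mup, antibody and T cell receptor genes), chosen key members of each list and the 4 with the smallest p of each list; the text prints part of them. Others are said to be named after their values were seen, or are the members behind a count of 6 or fewer. Promoter windows are from RefSeq (GRCm38.p6) and matched by symbol for 10425 of 13547 tested genes. The fit was tested on simulated data with 13428 tested genes. A simulated log2 change of 1 was found in 85.7% of 98 genes and one of 2 in 100% of 94 genes. Of the genes without a change, 0.0756% were called. The simulated data held no difference between batches and fewer changed genes than were called here, so these rates may not hold for the livers. Python 3.11.15 with matplotlib 3.10.9 was used for the figures. Young livers were not used here. Some genes of the lists are counted but not reported here by name.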

Additional observations from a re-analysis of the deposited data

Results flagged for a closer look

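For 154 genes the 8 mApple vehicle livers were searched for a liver far from the others, by the gap to the next liver as a share of the whole range (critical value 0.526). This picked out 17 genes, where chance gives about 1 in 20, and 12 of the 17 were in library 1137. Library 1137 had the highest Saa1 at 2123 CPM (9.88 to 76.8 in the others), the highest Lcn2 at 384.8 CPM (3.55 to 23.1), Cdc20 at 4.184 CPM, Pbk at 0.8773 CPM, F5 at 1006 CPM and Apob at 6485 CPM. It had the lowest Scd1 at 1013 CPM (14824 to 37977 in the others), Nop58 at 11.13 CPM, Atic at 24.29 CPM, Bst2 at 53.38 CPM, C6 at 165.9 CPM and Mtap at 17.07 CPM. Library 1136 had the highest Isg15 at 27.45 CPM and Gbp10 at 29.88 CPM and the lowest Cyp27a1 at 399.1 CPM. Library 855 had the lowest Rplp0 at 233.8 CPM (369 to 445 in the others), and library 1138 the highest Rpph1 at 4.455 CPM.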

How the results depend on the processing

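No paired analysis was possible because the library numbers differ between the groups, so that no replicate block could be fitted. Beside the 2544 genes called (1459 higher, 1085 lower), separate fits, each on its own set of tested genes, called 1468 (966, 502) with no batch term, 732 (539, 193) in batch 1 alone and 629 (445, 184) in batch 2 alone. At an adjusted p under 0.01 there were 1146 (768, 378). A single fit of the 4 old groups called 580 lower genes. Leaving out 1 library gave totals of 1931 to 3085, with 1183 to 1766 higher and 748 to 1319 lower. The ruxolitinib total of 2012 was 1033 with no batch term. Fewer libraries or a stricter threshold enter the batch fits and the 0.01 setting by construction; for the others the cause was not tested.

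Of the 154 genes checked, 147 were called, and none of the 147 changed sign under any setting run. This is not separate support, because the settings reuse the same libraries. The largest increases and decreases were also named only if their sign was the same in both batches. All 2525 called genes tested in batch 1 alone and all 2516 tested in batch 2 alone kept their sign too. The 147 genes checked and called stayed past the threshold in 147 cases with RLE, 147 with voom and 146 of 146 with DESeq2. With no batch term 122 did, in batch 1 98 and in batch 2 67, and 129 were called in all 19 fits that left out 1 library. Among uncalled genes, Ccnd1 was 0.63 in the first batch. Saa1 was 2.14 there, 0.57 with voom and -0.67 to 1.63 when 1 library was left out, and Lcn2 was 1.71, 0.84 and -0.45 to 1.36. The correlation of Isg15 with Myc was -0.10 when not centred and -0.00714 without libraries 870 and 867, where that of Npm1 was 0.55 and that of Cdk1 0.26. Genes near or below 1 CPM, such as Mycn, rest on few counts.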
